A study of Mus musculus with 12 samples.

Results

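The upstream brakes of mTORC1 are proteins that hold back mTOR complex 1 (mTORC1), the kinase complex that drives growth when amino acids, growth factors and energy suffice. The 10 genes described here were taken by name from the 49315 genes of the count tables: Ddit4 (which encodes REDD1), the sestrins Sesn1, Sesn2 and Sesn3, the TSC complex genes Tsc1, Tsc2 and Tbc1d7, and the GATOR1 genes Depdc5, Nprl2 and Nprl3. RNA sequencing measured their messages in cultured fibroblasts from mouse embryos (MEFs) after 24 h with Rapamycin at 20 ng/ml, Torin1 at 250 nM, RapaLink-1 at 10 nM, or the solvent DMSO, with 3 libraries in each of the 4 groups. Rapamycin binds FKBP12 and, with it, a site on mTOR outside the catalytic centre. Torin1 occupies the ATP site of the kinase, and RapaLink-1 joins a rapamycin unit to a kinase-site inhibitor through a linker. The doses differ, so comparisons between compounds are comparisons between these doses. All groups shared the same medium, DMEM with 10% FBS, and the labels name no genotype, strain or passage of the cells.

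TSC1, TSC2 and TBC1D7 form a complex whose TSC2 subunit switches off Rheb, the small GTPase that activates mTORC1 at the lysosome. REDD1 is induced by low oxygen, glucocorticoids and stress and acts through the TSC complex. GATOR1 switches off the Rag GTPases that carry mTORC1 to the lysosome, GATOR2 opposes GATOR1, and sestrins bind GATOR2 and keep it from doing so, with Sestrin2 also a leucine sensor. In many cells Ddit4 and Sesn2 are targets of the transcription factor ATF4, and sestrin genes are targets of p53 and FoxO factors.

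The libraries held between 30075870 and 39423703 counts, and every brake gene had between 101 and 5442 counts in each library. All 10 passed the filter on low counts that left 15917 genes. Nothing in the labels says whether replicate libraries were grown as separate cultures. The p-values set each difference between groups against the spread between these libraries. That spread may be only technical, so the p-values may not extend to new cultures. The common coefficient of variation between replicates beyond counting noise, as estimated by edgeR, was 1.48%. With counting noise included, the coefficient of variation of a brake gene within a group reached 8.31% (Sesn2 with Torin1). The summed level of 8 fibroblast markers (among them Col1a1, Col3a1, Pdgfrb and Vim), in CPM, the TMM-scaled counts of a gene relative to the size of its library, was 19790 to 20160 in the Rapamycin libraries, 20820 to 21500 in the Torin1 libraries and 18610 to 18930 in the RapaLink-1 libraries, against 21090 to 21490 in the DMSO libraries. All 4 epithelial, all 4 adipocyte and all 4 skeletal muscle markers averaged under 1 CPM, with Myod1 and Myog at 0. Of the endothelial, blood and neuronal markers only Kdr, Cd68 and Tubb3 averaged above 1 CPM, and the sums moved in different directions. The 4 endothelial markers summed to 1.12 to 1.56 CPM in the Rapamycin libraries, 2.32 to 2.48 CPM in the Torin1 libraries and 2.65 to 2.93 CPM in the RapaLink-1 libraries, against 0.762 to 1.56 CPM in the DMSO libraries. The 4 blood and macrophage markers summed to 2.19 to 3.52 CPM in the Rapamycin libraries, 3.90 to 4.15 CPM in the Torin1 libraries and 3.59 to 4.01 CPM in the RapaLink-1 libraries, against 2.82 to 3.34 CPM in the DMSO libraries. The 4 neuronal markers summed to 10.6 to 11.4 CPM in the Rapamycin libraries, 3.04 to 4.12 CPM in the Torin1 libraries and 2.90 to 4.12 CPM in the RapaLink-1 libraries, against 13.4 to 17.8 CPM in the DMSO libraries, nearly all of it Tubb3, a tubulin gene. In these bulk samples, fewer cells of a type and less RNA per cell cannot be told apart, and their part in the results was not tested.

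Promoter sequences of all 10 genes were found in RefSeq (GRCm38.p6), as 11 windows from 250 bases before to 50 after a transcription start, since Sesn1 has more than 1 start in that table. The windows of the genes with the largest falls (Ddit4 and Sesn2) and of the TSC complex genes that moved in opposite directions (Tsc2 and Tbc1d7) are printed 5′ to 3′ on the strand of the gene, with matches to the searched motifs other than the GC box in capitals.
Ddit4, chr10:59951721-59952020, minus strand: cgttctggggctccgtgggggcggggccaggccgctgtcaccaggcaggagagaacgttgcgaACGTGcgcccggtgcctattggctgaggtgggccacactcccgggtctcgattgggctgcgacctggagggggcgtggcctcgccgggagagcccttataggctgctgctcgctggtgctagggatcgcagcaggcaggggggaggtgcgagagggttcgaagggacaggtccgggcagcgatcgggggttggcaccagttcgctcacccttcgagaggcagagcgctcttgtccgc
Sesn2, chr4:132510407-132510706, minus strand: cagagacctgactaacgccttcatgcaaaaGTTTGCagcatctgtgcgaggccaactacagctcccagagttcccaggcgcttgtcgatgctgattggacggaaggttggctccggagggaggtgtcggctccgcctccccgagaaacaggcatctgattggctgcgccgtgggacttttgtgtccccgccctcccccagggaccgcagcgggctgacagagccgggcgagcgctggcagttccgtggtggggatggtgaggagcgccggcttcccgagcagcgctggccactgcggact
Tsc2, chr17:24632578-24632877, minus strand: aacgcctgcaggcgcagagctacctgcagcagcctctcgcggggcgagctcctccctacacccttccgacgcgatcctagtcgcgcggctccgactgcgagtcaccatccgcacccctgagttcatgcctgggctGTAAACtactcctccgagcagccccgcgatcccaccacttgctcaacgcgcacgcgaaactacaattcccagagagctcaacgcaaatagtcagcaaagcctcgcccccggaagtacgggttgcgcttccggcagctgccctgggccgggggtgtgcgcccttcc
Tbc1d7, chr13:43171452-43171751, minus strand: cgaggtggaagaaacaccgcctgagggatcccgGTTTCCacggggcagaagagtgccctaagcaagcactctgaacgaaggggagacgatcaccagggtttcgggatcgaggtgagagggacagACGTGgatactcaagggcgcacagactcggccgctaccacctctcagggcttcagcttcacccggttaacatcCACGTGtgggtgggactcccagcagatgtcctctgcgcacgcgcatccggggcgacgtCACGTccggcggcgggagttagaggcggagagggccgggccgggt

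The motifs were searched on both strands. The core of the C/EBP-ATF response element, TGATGNAA, which ATF4 dimers are known to bind, was in 3.97% of the 32851 promoter windows of the table and in none of the brake genes' windows. The hypoxia response core ACGTG, present in 19.6% of all windows, was found in Ddit4 at positions -187 to -183 from the start and in Tbc1d7 at 4 places, a pair of which are the 2 strands of an E-box, CACGTG, at -53 to -48. The E-box, which contains ACGTG and was in 7.15% of all windows, was in no other brake gene's window. The FoxO core GTAAACA, in 3.65% of all windows, was found in Sesn1 at 22 to 28 bases after its first listed start, as its reverse complement. The shorter FoxO insulin response core GTTTNC, which overlaps GTAAACA and was in 45.4% of all windows, was in the windows of Sesn1, Sesn2, Tsc2, Tbc1d7, Depdc5, Nprl2 and Nprl3. The GC box GGGCGG, in 35.7% of all windows, was found once each in Ddit4, Sesn2 and Nprl3, and more often in Sesn1, Sesn3 and Depdc5. It was not in the windows of Tsc1, Tsc2, Tbc1d7 or Nprl2. The Ddit4 window held 69% G and C, the Sesn2 window 64.7%, the Tsc2 window 65.0% and the Tbc1d7 window 64.0%, against a median of 52.7% over all windows. A match is a description of letters and not of a bound site. Bases outside these windows were not searched, so a missing match holds for the window only.

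Against DMSO, Ddit4 and the sestrins fell, and the TSC and GATOR1 genes changed in both directions, with Torin1 and RapaLink-1 by less than Ddit4 or any sestrin. Ddit4 and the 3 sestrins were lower with each of the 3 compounds, Ddit4 by 2.86-fold with Rapamycin, 8.97-fold with Torin1 and 7.74-fold with RapaLink-1. Tsc2 was higher with each compound, Tbc1d7 and Depdc5 were lower with each, and Nprl3 rose most with Rapamycin. Calls here are those of edgeR's quasi-likelihood test at an adjusted p below 0.05, with adjustment over all genes tested. With Rapamycin, 2 of the 10 genes were called higher and 7 lower, where 27.5% of all genes tested were higher and 32.2% lower, 59.7% in all. With Torin1, 4 were higher and 6 lower, against 39.8% and 38.3% of all genes, 78% in all. With RapaLink-1, 3 were higher and 6 lower, against 38.7% and 37.9%, 76.7% in all. The share of brake genes called is thus read against backgrounds in which most genes were called. Their median log2 fold changes were -0.14, -0.50 and -0.49 with Rapamycin, Torin1 and RapaLink-1, beside medians over all genes of 0.004, 0.04 and 0.03. Changes of at least 2-fold were called for 1, 3 and 4 of the 10 genes in the same order, where 3.57%, 18.4% and 16.3% of all genes moved that far. With Torin1, 28.2% of all genes had a higher log2 fold change than Tsc2, 43.7% than Tsc1, 43.6% than Nprl2 and 47% than Nprl3. A lower value than that of Depdc5 was seen for 24.6% of all genes, of Tbc1d7 for 16.5%, of Sesn3 for 7.14% and of Sesn1 for 5.99%. The compound and DMSO libraries did not overlap for 10, 10 and 9 of the brake genes, where 63%, 78.5% and 77.6% of all genes showed no overlap. These 3 comparisons share their DMSO libraries.

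**Figure D1:**
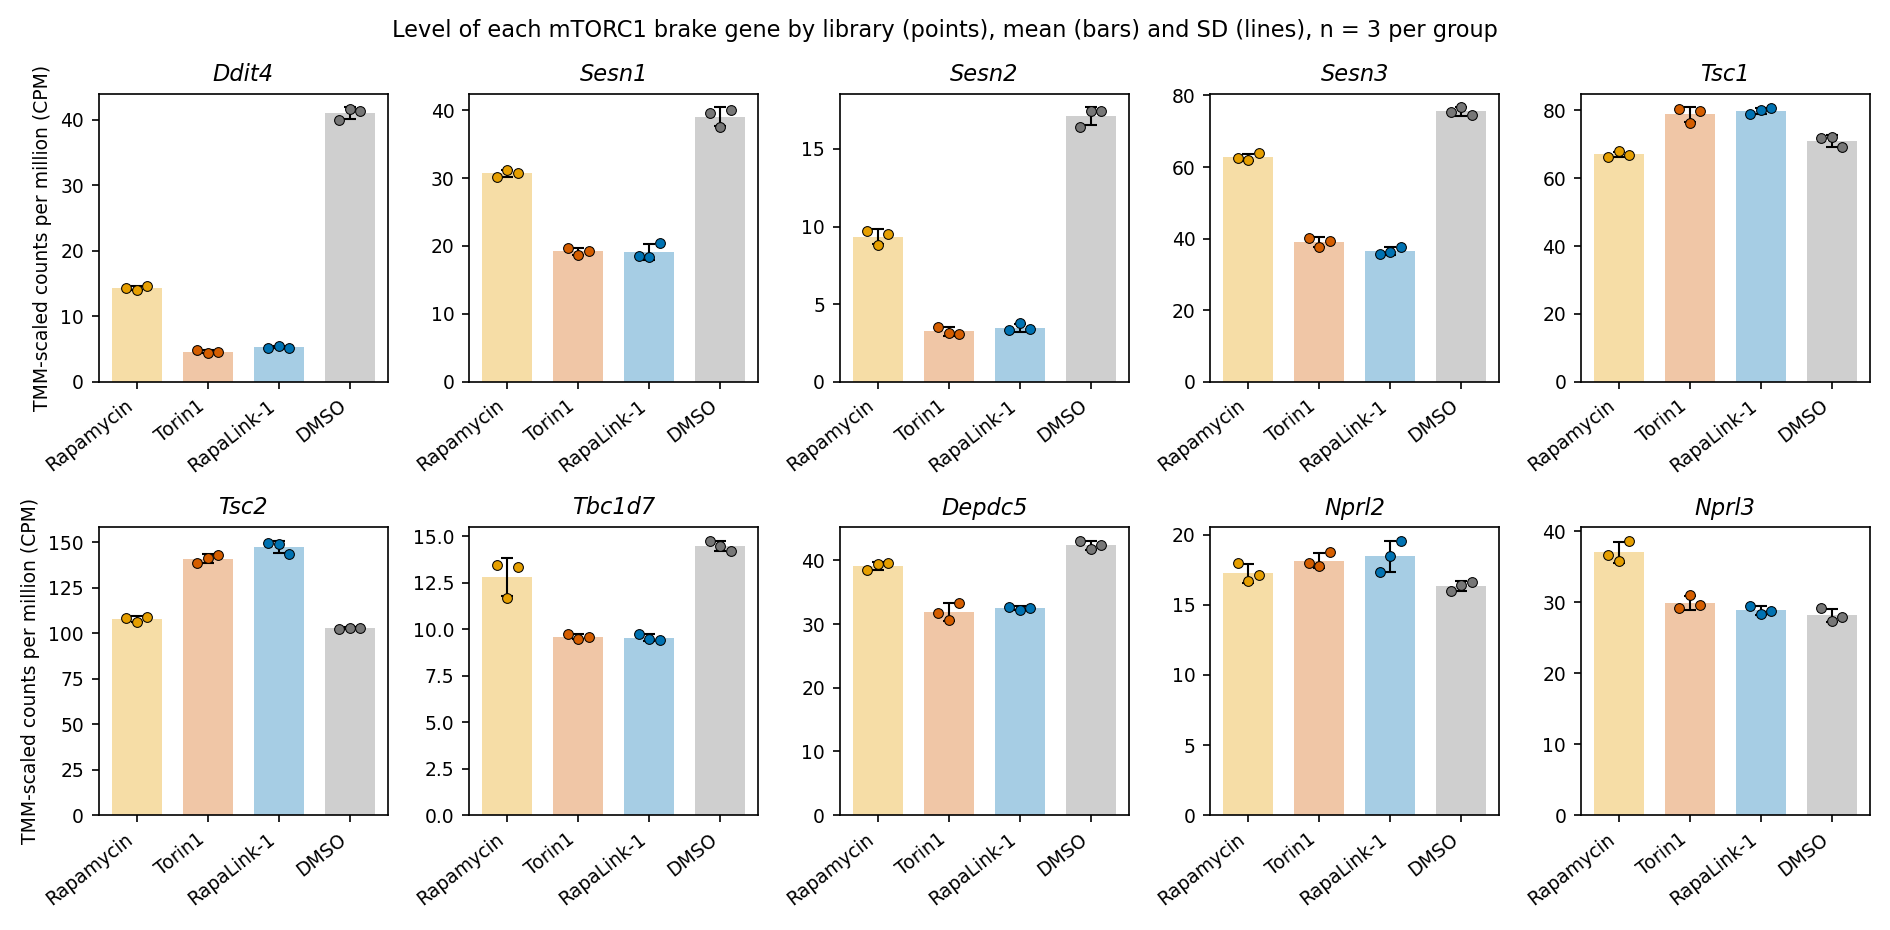
Level of each brake gene in TMM-scaled CPM (vertical axes, each from 0) by group; points are libraries, bars means and lines SD over 3 libraries. Ddit4 and Sesn2 averaged 4.58 and 3.23 CPM with Torin1, against 41.0 and 17.1 CPM with DMSO, while Tsc2 averaged 141.0 CPM with Torin1, against 102.7 CPM with DMSO.

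**Figure D2:**
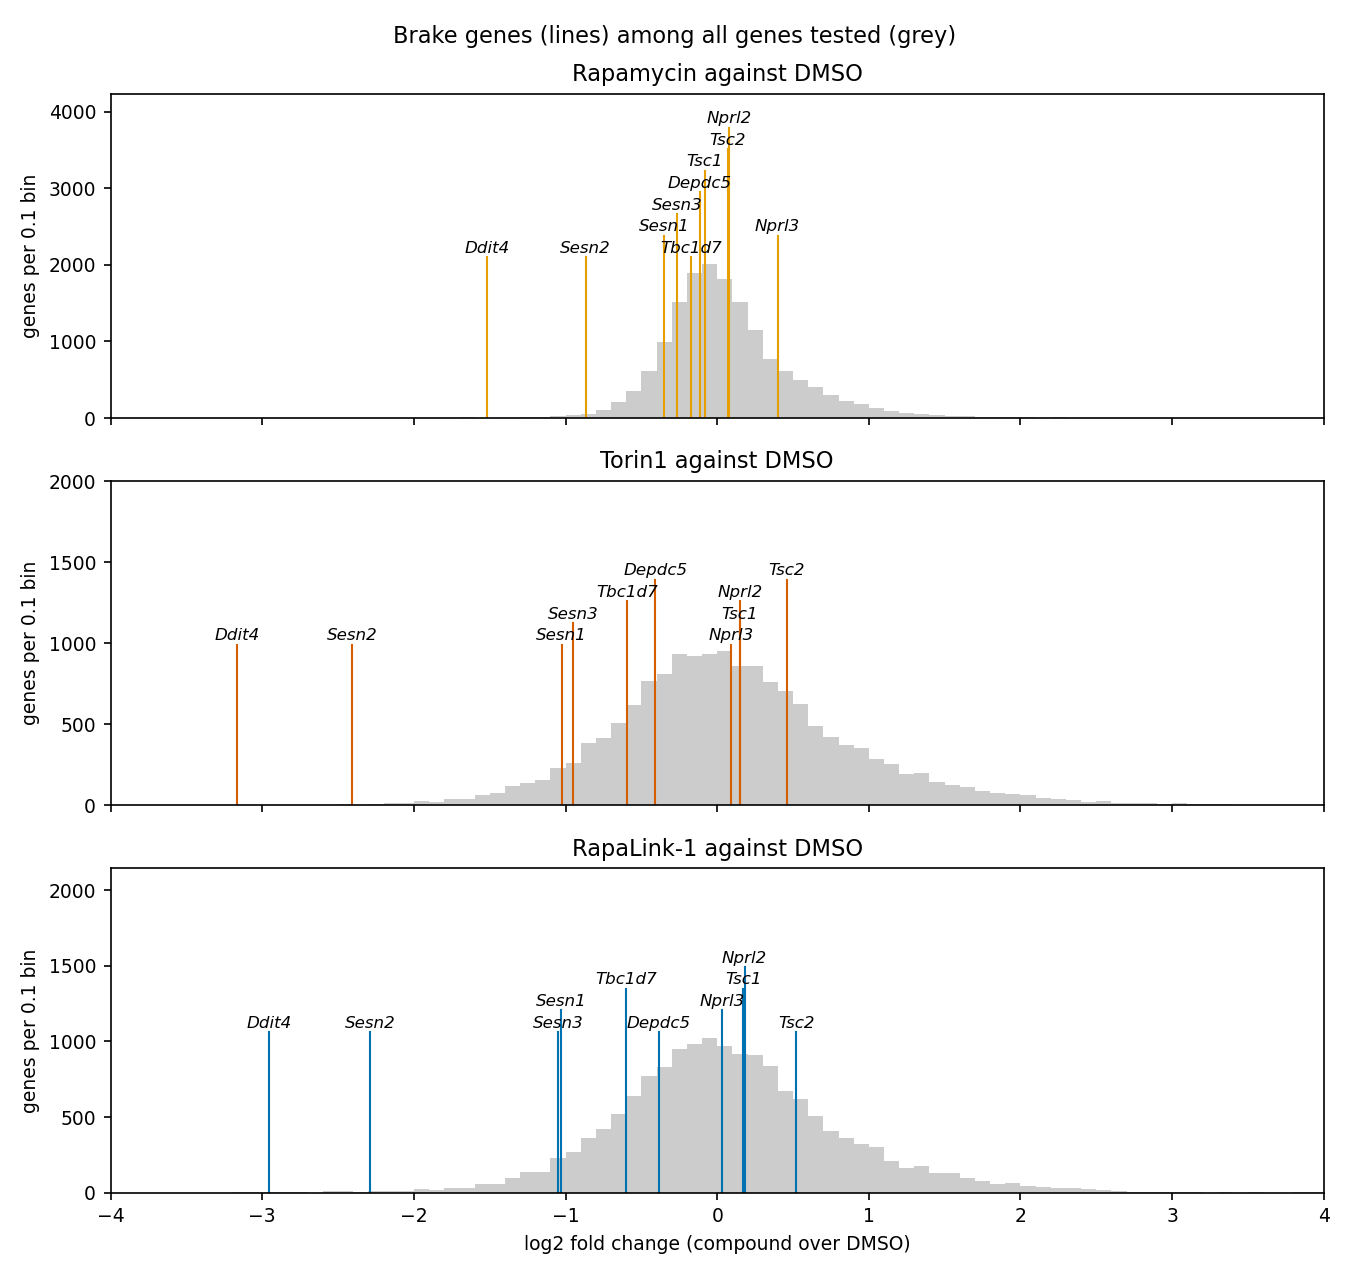
Log2 fold change of each compound over DMSO (horizontal axis) for the brake genes (coloured lines, labelled) among all 15917 genes tested (grey bars, number of genes per bin of 0.1). Ddit4 at -1.52, -3.16 and -2.95 and Sesn2 at -0.87, -2.41 and -2.29 lay in the left tail with Rapamycin, Torin1 and RapaLink-1, and the other 8 genes lay between -1.05 and 0.52.

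Ddit4, at 10:59949675-59951770 on the minus strand of GRCm38, encodes REDD1. It was measured at 14.35, 14.03 and 14.54 CPM in the Rapamycin libraries, 4.83, 4.37 and 4.54 CPM in the Torin1 libraries and 5.13, 5.51 and 5.21 CPM in the RapaLink-1 libraries, against 40, 41.67 and 41.32 CPM in the DMSO libraries. The DMSO libraries were the highest, the Rapamycin libraries lay between, and no library of one group overlapped another group. The log2 fold change was -1.52 ± 0.05 (SE) with Rapamycin (edgeR adjusted p = 9.87e-69), -3.16 ± 0.06 with Torin1 (adjusted p = 1.01e-100) and -2.95 ± 0.06 with RapaLink-1 (adjusted p = 3.55e-98). Among the 15917 genes these were the 20th, 11th and 21st largest falls. Ddit4 was also lower with Torin1 than with Rapamycin, by a log2 change of -1.65 (adjusted p = 2.71e-49), and lower with RapaLink-1 than with Rapamycin, by -1.44 (adjusted p = 5.89e-44).

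Sesn2, which encodes a leucine-binding sestrin, at 4:132492032-132510501 on the minus strand, was at 9.71, 8.79 and 9.52 CPM with Rapamycin, 3.54, 3.12 and 3.04 CPM with Torin1 and 3.30, 3.78 and 3.39 CPM with RapaLink-1, against 16.4, 17.5 and 17.4 CPM with DMSO. The order of the groups was that of Ddit4, except that the Torin1 and RapaLink-1 libraries overlapped. On the log2 scale the change was -0.87 ± 0.07 with Rapamycin, -2.41 ± 0.08 with Torin1 and -2.29 ± 0.08 with RapaLink-1, with edgeR adjusted p-values of 1.2e-26, 2.08e-65 and 1.88e-63. Among all genes these were the 153rd, 44th and 55th largest falls. Against Rapamycin, Sesn2 fell by 1.54 with Torin1 and by 1.42 with RapaLink-1 on the log2 scale (adjusted p = 9.5e-36 and 4.94e-33).

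The other sestrins fell less. Sesn1, a p53 and FoxO target in other settings, at 10:41809935-41908424 on the plus strand, was at 30.1, 31.1 and 30.8 CPM with Rapamycin, 19.7, 18.7 and 19.2 CPM with Torin1 and 18.5, 18.4 and 20.4 CPM with RapaLink-1, against 39.64, 37.47 and 40.04 CPM with DMSO. Sesn3, a FoxO target in other settings, at 9:14275067-14333101 on the plus strand, was at 62.5, 61.9 and 63.8 CPM with Rapamycin, 40.3, 37.7 and 39.4 CPM with Torin1 and 35.6, 36.2 and 37.6 CPM with RapaLink-1, against 75.4, 76.7 and 74.4 CPM with DMSO. For both genes every compound library lay below every DMSO library, and the Rapamycin libraries lay between DMSO and the kinase-site inhibitors. The log2 fold changes of Sesn1 were -0.35 ± 0.04 with Rapamycin, -1.03 ± 0.04 with Torin1 and -1.03 ± 0.04 with RapaLink-1 (edgeR adjusted p = 3.3e-14, 4.62e-52 and 2.89e-52). Those of Sesn3 were -0.27 ± 0.03, -0.95 ± 0.03 and -1.05 ± 0.03 (adjusted p = 8.05e-15, 4.71e-65 and 5.41e-70).

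Within the sestrins the makeup of the messages also differed between groups. Per exonic kilobase (RPKM, CPM divided by the exonic length in kilobases), the 3 sestrins summed to 14.5 ± 0.1 RPKM with Rapamycin, 8.31 ± 0.28 RPKM with Torin1 and 8.19 ± 0.34 RPKM with RapaLink-1, against 19.7 ± 0.3 RPKM with DMSO (SD, n = 3 each). Sesn2 made up 17.6% to 19.3% of that sum with Rapamycin, 10.6% to 11.8% in Torin1 libraries and 11.4% to 13.5% with RapaLink-1, against 24.1% to 25.8% with DMSO. Sesn1 was the most abundant sestrin message per kilobase in every library, at 52.3% to 54.3% of the sum with Rapamycin, 57.5% to 58.3% in Torin1 libraries and 57.2% to 59.9% with RapaLink-1, against 48.4% to 50.7% with DMSO. Ddit4 averaged 8.49, 2.72 and 3.13 RPKM with the 3 compounds, against 24.3 RPKM with DMSO. With DMSO, Ddit4 was thus above the summed sestrins on the per-length scale, and with each compound it was below them. Rankings between genes on this scale depend on the length of all annotated exons, 3.98 kb for Sesn1 and 15.3 kb for Sesn3. In CPM, Sesn3 was above Sesn1 in every group.

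The TSC complex genes did not move together. Tsc2, which encodes the subunit that acts on Rheb, at 17:24595937-24632629 on the minus strand, was at 108.4, 106.2 and 108.9 CPM with Rapamycin, 138.5, 141.4 and 143.1 CPM with Torin1 and 149.6, 149.2 and 143.6 CPM with RapaLink-1, against 102.3, 102.8 and 103.1 CPM with DMSO. Every compound library lay above every DMSO library, and every library with a kinase-site inhibitor lay above every Rapamycin library. The log2 fold change was 0.07 ± 0.02 with Rapamycin (edgeR adjusted p = 0.00786), 0.46 ± 0.02 with Torin1 (adjusted p = 5.77e-44) and 0.52 ± 0.02 with RapaLink-1 (adjusted p = 9.47e-51). The Rapamycin call was lost without Rapamycin replicate 3 (adjusted p = 0.0534), with no filter on low counts (0.0526) and in DESeq2 (0.0826). Of the exonic bases of Tsc2, 9.61% (578 bases) are shared with Pkd1 on the opposite strand, and the sources used here do not give how reads there were assigned, so the size of the Tsc2 change is uncertain. With upper-quartile scaling the Rapamycin value was 0.13. Pkd1, which encodes polycystin-1, had log2 fold changes of 0.16 with Rapamycin, 0.57 with Torin1 and 0.43 with RapaLink-1.

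Tsc1, which encodes the scaffold that stabilises TSC2, at 2:28641228-28691167 on the plus strand, was at 66.3, 67.9 and 66.8 CPM with Rapamycin, 80.3, 76.4 and 79.7 CPM with Torin1 and 78.81, 80.04 and 80.71 CPM with RapaLink-1, against 71.7, 72.2 and 69.1 CPM with DMSO. The Rapamycin libraries were all below and the other compound libraries all above the DMSO libraries. As a log2 fold change this was -0.08 ± 0.03 with Rapamycin (edgeR adjusted p = 0.00885), 0.15 ± 0.03 with Torin1 (adjusted p = 7.39e-07) and 0.17 ± 0.03 with RapaLink-1 (adjusted p = 2.41e-08). With Torin1 against Rapamycin, Tsc1 was higher by 0.23 (adjusted p = 3.47e-13), and with RapaLink-1 against Rapamycin by 0.25 (adjusted p = 5.42e-15). The fall with Rapamycin was not called with upper-quartile scaling (-0.02, adjusted p = 0.556), with genes under a mean of 5 CPM filtered out (0.425) or with only the 2 groups fitted (0.0651). With upper-quartile scaling the values were 0.28 with Torin1 and 0.31 with RapaLink-1, and with the filter 0.24 and 0.26.

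Tbc1d7, which encodes the third subunit of the complex, at 13:43151744-43171501 on the minus strand, was lower with each compound. It was at 13.5, 11.7 and 13.3 CPM with Rapamycin, 9.76, 9.50 and 9.56 CPM with Torin1 and 9.77, 9.46 and 9.44 CPM with RapaLink-1, against 14.8, 14.5 and 14.2 CPM with DMSO. All compound libraries lay below all DMSO libraries, and 1 Rapamycin library was lower than the other 2. The log2 fold change was -0.17 ± 0.06 with Rapamycin (edgeR adjusted p = 0.0119), -0.59 ± 0.07 with Torin1 (adjusted p = 1.24e-15) and -0.60 ± 0.07 with RapaLink-1 (adjusted p = 6.34e-16). Without Rapamycin replicate 2, the low library, the adjusted p for Rapamycin was 0.139, and it was 0.123 with upper-quartile scaling and 0.0878 with the filter at 5 CPM.

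On the per-length scale, the 3 TSC complex messages summed to 33.8 ± 1.0 RPKM with Rapamycin, 37.7 ± 0.3 RPKM with Torin1 and 38.8 ± 0.6 RPKM with RapaLink-1, against 34.6 ± 0.3 RPKM with DMSO (SD, n = 3 each). Tbc1d7 made up 28.4% to 31.2% of the sum with Rapamycin, 19.9% to 20.6% in Torin1 libraries and 19.2% to 19.8% with RapaLink-1, against 32.9% to 33.7% with DMSO. Tsc2 took 52.5% to 54.0%, 61.3% to 62.7% and 62.5% to 63.5% with the 3 compounds in that order, against 48.87% to 50.01% with DMSO. Tsc1 was the smallest share in every group, at 16.3% to 17.6%, 17.2% to 18.1% and 17.0% to 17.9% with the compounds, against 17.1% to 17.6% with DMSO, and these ranges overlapped. Here too the ranking depends on exonic length, 11.8 kb for Tsc1 and 1.26 kb for Tbc1d7. In CPM, Tbc1d7 was the lowest of the TSC complex genes in every group.

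**Figure D3:**
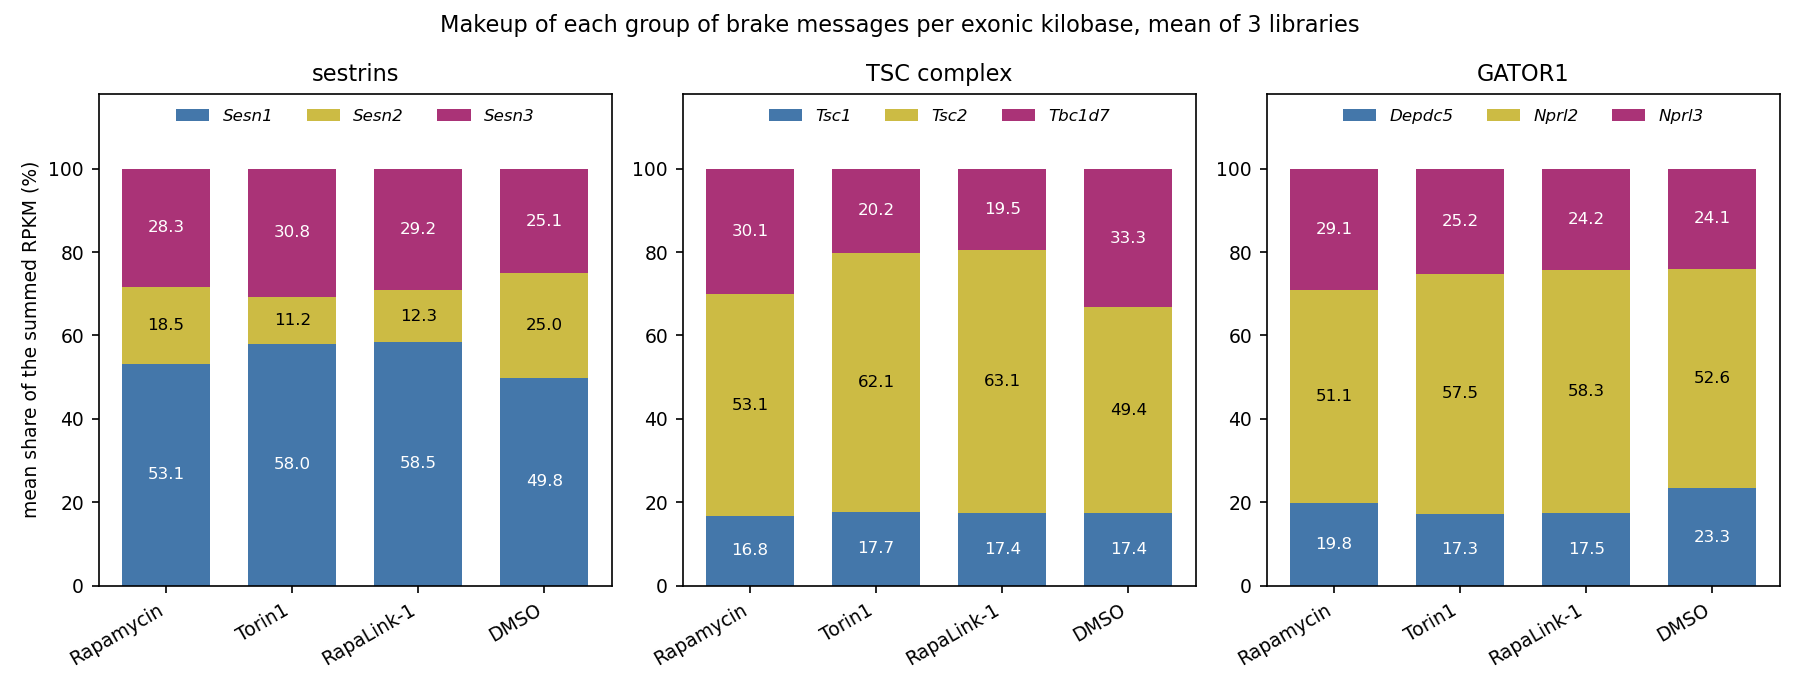
Mean share of each message in the summed RPKM of its group of brakes (vertical axis, percent, mean of 3 libraries) for the sestrins, the TSC complex and GATOR1, by treatment group. Sesn2 and Tbc1d7 held smaller mean shares with Torin1 (11.2% and 20.2%) than with DMSO (25.0% and 33.3%).

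The GATOR1 genes changed in different directions. Depdc5, which encodes the subunit that contacts the Rag GTPases, at 5:32863701-32994236 on the plus strand, was at 38.4, 39.4 and 39.6 CPM with Rapamycin, 31.8, 30.7 and 33.3 CPM with Torin1 and 32.8, 32.2 and 32.6 CPM with RapaLink-1, against 43.1, 41.7 and 42.4 CPM with DMSO. No compound library reached the DMSO libraries. Relative to DMSO the log2 change was -0.12 ± 0.04 with Rapamycin (edgeR adjusted p = 0.00422), -0.41 ± 0.04 with Torin1 (adjusted p = 7.21e-20) and -0.38 ± 0.04 with RapaLink-1 (adjusted p = 3.26e-18). The Rapamycin call was lost with upper-quartile scaling (adjusted p = 0.213) and with the filter at 5 CPM (0.147), and the RapaLink-1 value was -0.25 with that scaling.

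Nprl3, at 11:32225628-32267707 on the minus strand, was at 36.6, 35.8 and 38.6 CPM with Rapamycin, 29.2, 31.0 and 29.6 CPM with Torin1 and 29.4, 28.3 and 28.8 CPM with RapaLink-1, against 29.2, 27.3 and 27.9 CPM with DMSO. The Rapamycin libraries stood above all 9 others, while the RapaLink-1 libraries overlapped those of DMSO. The log2 fold change was 0.40 ± 0.04 with Rapamycin (edgeR adjusted p = 5.5e-17), 0.09 ± 0.04 with Torin1 (adjusted p = 0.0497) and 0.03 ± 0.04 with RapaLink-1 (adjusted p = 0.49, interval -0.05 to 0.12). Compared directly, Nprl3 was lower with Torin1 than with Rapamycin by 0.31 (log2 fold change -0.31, adjusted p = 9.51e-12) and lower with RapaLink-1 than with Rapamycin (-0.36, adjusted p = 5.42e-15). The Torin1 call against DMSO was lost in 8 of 13 alternatives, and with upper-quartile scaling RapaLink-1 was called higher than DMSO (0.17, adjusted p = 0.000193), as it was with the filter at 5 CPM (0.12, adjusted p = 0.00828). The Torin1 value was 0.22 with that scaling, 0.18 with that filter and 0.05 without Torin1 replicate 2. Of the exonic bases of Nprl3, 17.7% (1340 bases) are shared with Mpg on the opposite strand. How reads there were assigned is not given, so the size of the Nprl3 changes is uncertain. Mpg, a DNA repair glycosylase, had log2 fold changes of 0.19 with Rapamycin, 0.29 with Torin1 and 0.24 with RapaLink-1.

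Nprl2, which encodes the subunit with the GTPase-activating residue of GATOR1, at 9:107542226-107545706 on the plus strand, was at 17.98, 16.68 and 17.11 CPM with Rapamycin, 18.0, 17.8 and 18.8 CPM with Torin1 and 17.4, 18.5 and 19.6 CPM with RapaLink-1, against 15.97, 16.44 and 16.66 CPM with DMSO. The compound libraries all lay above the DMSO libraries, by little for the lowest Rapamycin library. On the log2 scale the change was 0.08 ± 0.05 with Rapamycin, which was not called (edgeR adjusted p = 0.213, interval -0.03 to 0.19), 0.15 ± 0.05 with Torin1 (adjusted p = 0.00814) and 0.18 ± 0.05 with RapaLink-1 (adjusted p = 0.00174). The Torin1 call was lost in DESeq2 (adjusted p = 0.105) and without Torin1 replicate 3 (0.0721), and the Rapamycin value was called with upper-quartile scaling (0.0194) and with the filter at 5 CPM (0.0191). With these, Nprl2 was at 0.28 and 0.24 with Torin1, and at 0.32 with RapaLink-1 under the scaling.

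The GATOR1 messages summed to 16.8 ± 0.4 RPKM with Rapamycin, 15.7 ± 0.3 RPKM with Torin1 and 15.7 ± 0.5 RPKM with RapaLink-1, against 15.4 ± 0.1 RPKM with DMSO. Depdc5 took 19.2% to 20.4% of the sum with Rapamycin, 16.8% to 17.6% in Torin1 libraries and 17.0% to 18.2% with RapaLink-1, against 23.1% to 23.7% with DMSO. Nprl3 took 28.4% to 30.1% with Rapamycin, 24.3% to 26.4% in Torin1 libraries and 23.3% to 25.4% with RapaLink-1, against 23.5% to 24.9% with DMSO. Nprl2 was the largest share in each group. That ranking depends on exonic length, 2.01 kb for Nprl2, 7.57 kb for Nprl3 and 11.8 kb for Depdc5. In CPM, Nprl2 was the lowest of the GATOR1 genes in every group.

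**Figure D4:**
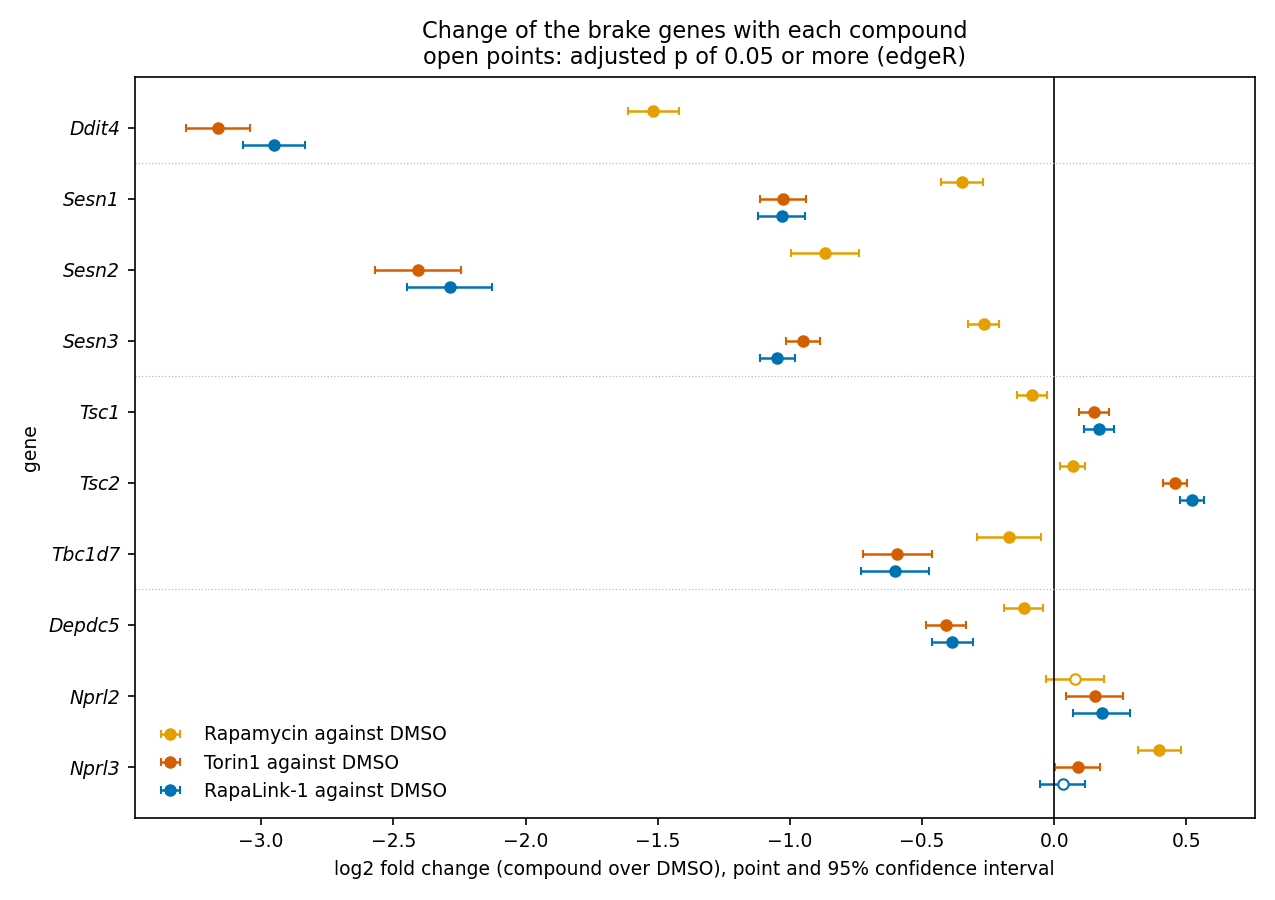
Log2 fold change of each compound over DMSO (horizontal axis) for the 10 brake genes, with 95% confidence intervals from edgeR over 12 libraries; open points had an adjusted p of 0.05 or more. The kinase-site inhibitors lay further from 0 than Rapamycin for 9 genes, Nprl3 being at 0.40 with Rapamycin and at 0.09 and 0.03 with Torin1 and RapaLink-1.

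Torin1 and Rapamycin, and RapaLink-1 and Rapamycin, were compared directly for every brake gene. With Torin1, 2 genes (Tsc1 and Tsc2) were called higher than with Rapamycin and 7 lower, where 34.2% and 33.2% of all genes were, 67.5% in all. With RapaLink-1, the counts against Rapamycin were also 2 higher and 7 lower, where 32% and 33% of all genes were, 65% in all. The libraries did not overlap for 9 genes in each comparison, where 69.2% of all genes for Torin1 and 67.4% for RapaLink-1 showed no overlap. Changes of at least 2-fold were called for Ddit4 and Sesn2 in each, where 8.14% and 5.71% of all genes moved that far. The gene without a call was Nprl2 in both, at 0.07 for Torin1 (edgeR adjusted p = 0.225, interval -0.03 to 0.18) and 0.10 for RapaLink-1 (adjusted p = 0.0902, interval -0.01 to 0.21). It was called higher than with Rapamycin under upper-quartile scaling, at 0.14 for Torin1 (adjusted p = 0.0189) and 0.18 for RapaLink-1 (adjusted p = 0.00248), and for RapaLink-1 with the filter at 5 CPM (0.13, adjusted p = 0.0229). Tsc2 was higher by 0.39 with Torin1 and by 0.45 with RapaLink-1 than with Rapamycin, Tbc1d7 was at -0.42 and -0.43, and Depdc5 at -0.29 and -0.27. Sesn1 was at -0.68 in both, and Sesn3 at -0.68 and -0.78.

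RapaLink-1 at 10 nM was also set against Torin1 at 250 nM. These differ in dose and in the kinase-site inhibitor itself, that of RapaLink-1 being derived from sapanisertib, as well as in the rapamycin unit and linker, so the contrast does not isolate the rapamycin unit. Of the 10 genes 1 was called higher and 1 lower with RapaLink-1, where 16.7% and 16.4% of all genes were, 33.2% in all. Tsc2 was higher with RapaLink-1 by 0.06 (edgeR adjusted p = 0.0195, interval 0.02 to 0.11) and Sesn3 lower (-0.10, adjusted p = 0.033, interval -0.17 to -0.02). Neither call held throughout: that of Sesn3 was lost in 8 of 13 alternatives and that of Tsc2 without Torin1 replicate 1, RapaLink-1 replicate 1 or RapaLink-1 replicate 2. Ddit4 was at 0.21 (adjusted p = 0.0715, interval 0.03 to 0.40), with all RapaLink-1 libraries above all Torin1 libraries. The libraries of 3 genes (Ddit4, Sesn3 and Tsc2) did not overlap, where 42.2% of all genes showed no overlap. The intervals of the remaining 7 genes held 0, the widest being that of Sesn2 at -0.11 to 0.35, followed by Tbc1d7 at -0.15 to 0.13, and the narrowest that of Tsc1 at -0.04 to 0.08.

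The genes whose pattern over the 12 libraries was most like that of each brake gene were found by the root mean square difference of log2 CPM, each relative to its own DMSO mean, among 10000 other protein-coding genes (those with only a provisional Gm, Rik or clone symbol left out) averaging 5 CPM or more. For Ddit4 they were Ung, a uracil-DNA glycosylase (0.26), Mthfd2, a mitochondrial folate enzyme (0.34), and Psat1, an enzyme of serine synthesis (0.46), and no gene came within 0.2. For Sesn2 they were Sdf2l1, an endoplasmic reticulum protein (0.18), Psat1 (0.18) and Them6 (0.19), with 4 genes within 0.2. The other brake genes had many near neighbours, from 700 genes within 0.2 for Sesn3 to 2759 for Depdc5. The nearest were Mrpl16 for Sesn1 (0.05), Suv39h1 for Sesn3 (0.04), Rock2 for Tsc1 (0.03), Wwc2 for Tsc2 (0.03), Nutf2 for Tbc1d7 (0.04), Trappc10 for Depdc5 (0.03), Pomgnt1 for Nprl2 (0.04) and Itga6 for Nprl3 (0.06). These values share libraries and controls and are given as a description.

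Other genes of mTORC1 regulation were counted in the same test, where 27.5% of all genes were higher and 32.2% lower with Rapamycin, 39.8% and 38.3% with Torin1, and 38.7% and 37.9% with RapaLink-1. The lists are short, and their counts are given beside these shares as a description. Upper-quartile scaling raised the log2 fold changes of the brake genes by a median of 0.063, 0.127 and 0.137 with Rapamycin, Torin1 and RapaLink-1. Falls of about that size or less can therefore lose their call or change sign with this scaling, while rises grow. GATOR2, the complex that opposes GATOR1, had 1 gene higher and 4 lower of 5 with Rapamycin, 2 and 2 with Torin1, and 2 and 3 with RapaLink-1. Sec13 and Seh1l, which also serve in the nuclear pore, were lower with each compound, Sec13 at -0.29, -1.0 and -0.92 and Seh1l at -0.42, -0.58 and -0.52 with Rapamycin, Torin1 and RapaLink-1. Wdr24 was higher with each (0.12, 0.10 and 0.15), Wdr59 was at -0.10, 0.38 and 0.23, and Mios at -0.20, -0.08 (adjusted p = 0.0569) and -0.18. In KICSTOR, the scaffold that holds GATOR1 at the lysosome, of 2 genes counted here, 0 were higher and 1 lower with Rapamycin, 1 and 0 with Torin1, and 0 and 0 with RapaLink-1. Kptn was at 0.04 (adjusted p = 0.618), 0.17 and 0.02 (0.788), and Itfg2 at -0.29, -0.02 (0.745) and -0.04 (0.344).

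Among 5 amino acid sensors, 1 gene was higher and 3 lower with Rapamycin, and 2 were higher and 3 lower with Torin1 and with RapaLink-1. Castor2, a paralog of the arginine sensor Castor1, averaged 25.6 CPM with Rapamycin, 7.08 CPM with Torin1 and 7.65 CPM with RapaLink-1, against 30.8 CPM with DMSO, at log2 fold changes of -0.26 ± 0.05, -2.12 ± 0.06 and -2.0 ± 0.06. Castor1 was at 0.02 (adjusted p = 0.836), 0.35 and 0.33, and the lysosomal arginine transporter Slc38a9 at 0.20, 0.42 and 0.29. Lars, the leucyl-tRNA synthetase, was lower with each (-0.44, -0.79 and -0.84), as was Bmt2, which encodes the S-adenosylmethionine sensor SAMTOR (-0.39, -0.67 and -0.60).

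The 9 Rag and Ragulator genes, through which GATOR1 acts on mTORC1, had 2 higher and 2 lower with Rapamycin, and 5 higher and 2 lower with Torin1 and with RapaLink-1. Rraga, RagA, was at 0.05 (edgeR adjusted p = 0.0537), -0.48 and -0.42, while its paralog Rragb was at -0.07 (adjusted p = 0.407), 0.91 and 0.81. Rragc was at -0.03 (adjusted p = 0.249), 0.25 and 0.29, and Lamtor2 at 0.22, 0.22 and 0.12. The folliculin complex, which acts on RagC and RagD, had all 3 genes higher with Torin1 and with RapaLink-1. Flcn was at 0.00 (adjusted p = 0.921), 0.52 and 0.58, Fnip1 at 0.15, 0.69 and 0.78, and Fnip2 at -0.17, 0.45 and 0.48.

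Rheb, the target of the TSC complex, was called lower with each compound by amounts close to that scaling shift (-0.09, -0.13 and -0.16), and its paralog Rhebl1 was higher, averaging 10.6, 11.8 and 10.5 CPM with Rapamycin, Torin1 and RapaLink-1, against 5.82 CPM with DMSO. Of the inhibitors bound to mTOR itself, Akt1s1, which encodes PRAS40, was lower with each (-0.35, -0.28 and -0.30) and Deptor higher (0.43, 0.47 and 0.34). Ddit4l, the paralog of Ddit4, had 10 to 24 counts with Rapamycin, 2 to 6 in Torin1 libraries and 1 to 3 with RapaLink-1, against 34 to 45 with DMSO, and was called lower with each compound.

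**Figure D5:**
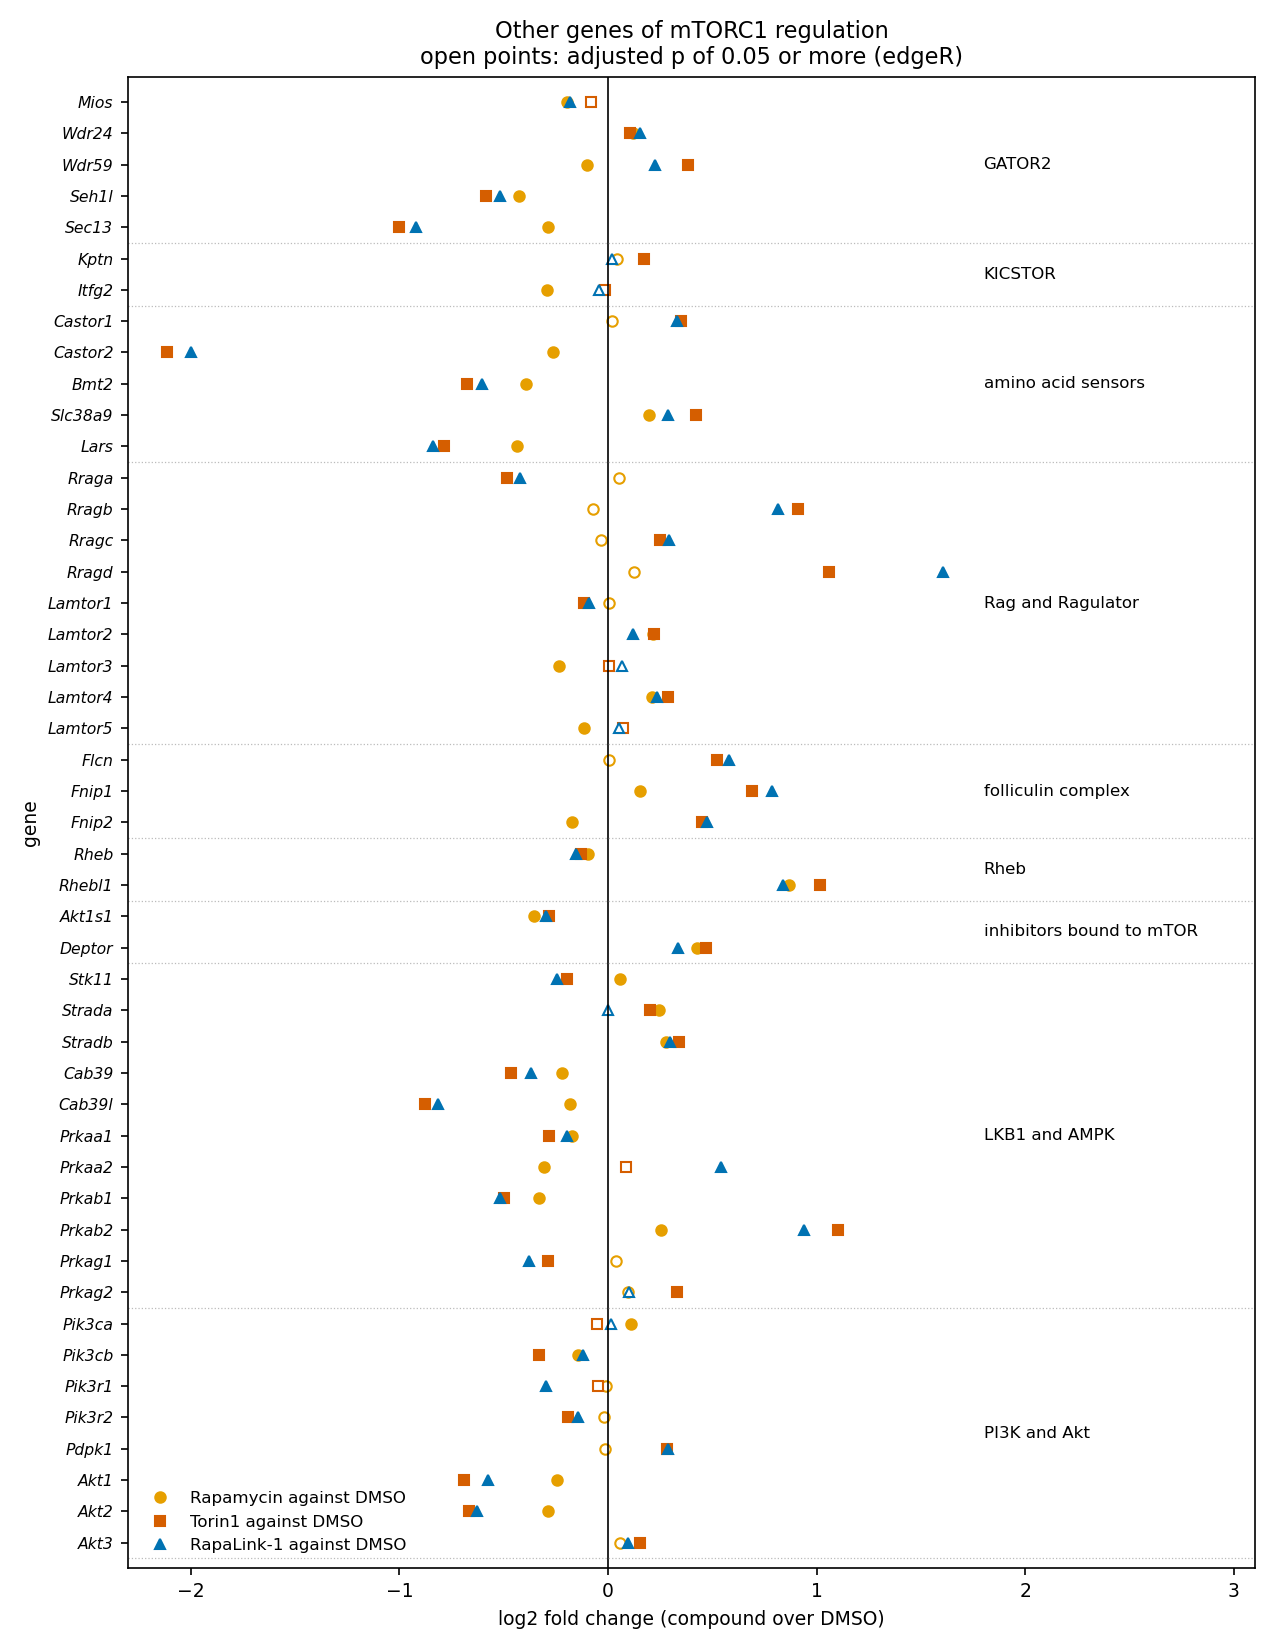
Log2 fold change of each compound over DMSO (horizontal axis) for other genes of mTORC1 regulation, grouped by complex; open points had an adjusted p of 0.05 or more in edgeR. The 3 folliculin complex genes lay between 0.45 and 0.78 with Torin1 and RapaLink-1, and Castor2 lay at -2.12 and -2.0.

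Of 11 LKB1 and AMPK genes, which act on TSC2 when energy is low, 4 were higher and 5 lower with Rapamycin, 4 and 6 with Torin1, and 3 and 6 with RapaLink-1. The regulatory subunit Prkab2 was at 0.25, 1.10 and 0.94 and its paralog Prkab1 at -0.33, -0.50 and -0.52. Cab39l and Cab39, which activate LKB1, were lower with each compound (-0.18, -0.87 and -0.81 for Cab39l, and -0.22, -0.46 and -0.37 for Cab39). Of 8 PI3K and Akt genes, which relay growth factor signals to TSC2, 1 was higher and 3 lower with Rapamycin, 2 and 4 with Torin1, and 2 and 5 with RapaLink-1. Akt1 was at -0.24, -0.69 and -0.57, Akt2 at -0.29, -0.66 and -0.63, Pik3cb at -0.15, -0.33 and -0.12, and Pdpk1 at -0.01 (adjusted p = 0.696), 0.28 and 0.29.

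Of 6 ubiquitin ligases known to act on the brakes, 2 were higher and 2 lower with Rapamycin, 3 and 1 with Torin1, and 4 and 1 with RapaLink-1. Mycbp2, which acts on TSC2, was at -0.14, 0.38 and 0.38, Herc1, which also acts on TSC2, at -0.19, -0.18 and -0.16, and Rnf167, which acts on Sestrin2, at 0.44, 0.41 and 0.27. Btrc was at 0.05 (adjusted p = 0.298), 0.19 and 0.28, Fbxw5 at 0.21, 0.01 (0.822) and -0.01 (0.864), and Klhl22, which acts on DEPDC5, at 0.07 (0.0751), -0.01 (0.749) and 0.14.

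Among 10 tested transcription factors known for Ddit4 and the sestrins, 3 were higher and 4 lower with Rapamycin and with Torin1, and 5 higher and 3 lower with RapaLink-1. Atf4 averaged 227.0 CPM with Rapamycin, 129.0 CPM with Torin1 and 126.5 CPM with RapaLink-1, against 299.8 CPM with DMSO, at log2 fold changes of -0.40 ± 0.02, -1.22 ± 0.02 and -1.25 ± 0.02 (edgeR adjusted p = 8.54e-47, 2.56e-110 and 1.96e-111). Foxo1 was higher with each compound (0.45, 1.12 and 1.14), as was Foxo3 (0.24, 0.75 and 0.66), and Hif1a was at -0.12, 0.51 and 0.28. All 9 ATF4 targets on the list, the brake genes left out, were called lower with each compound, where 32.2%, 38.3% and 37.9% of all genes were, at medians of -0.88, -2.06 and -1.98. Chac1, a glutathione-degrading enzyme, changed least with RapaLink-1 (-0.52, -1.05 and -0.16, edgeR adjusted p = 0.0314 for RapaLink-1), where its libraries overlapped those of DMSO. The 4 with the smallest p for Torin1 were Psat1 (-0.91, -2.62 and -2.50), the leucine transporter gene Slc7a5 (-0.95, -2.06 and -1.98), Mthfd2 (-0.88, -3.23 and -3.20) and Aldh1l2, a mitochondrial folate enzyme (-1.68, -4.51 and -4.19).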

How the data were processed

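The authors deposited 1 table of unnormalized read counts for each library. The submitters' processing notes name featureCounts from Subread 1.5.2, STAR 2.5.2b, Trimmomatic 0.36, DESeq2 and GRCm38. The sources used here do not give the strand setting, the annotation release or how reads matching several places were treated. Symbols came from GENCODE M21, which held 49056 of the 49315 IDs; 19906 genes had no counts. Gene positions and exonic lengths are those of the count tables.

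Genes were tested with edgeR 4.0.16 (R 4.3.3, limma 3.58.1) after filterByExpr by group and TMM scaling: a robust quasi-likelihood fit of all 12 libraries with the group as its only term (8 residual degrees of freedom), both-sided contrasts, and Benjamini-Hochberg adjustment over 15917 genes. CPM are TMM-scaled; RPKM divide these by exonic kilobases. No exact permutation test is given, since the smallest p it allows for 3 libraries against 3 is 0.1. The test was also run on simulated counts in which only few genes were changed. In these data most genes were called, so that run cannot check the scaling used here. Replicate libraries differed by more than sampling noise (chi-square over its degrees of freedom 1.33 to 1.99). Alternatives were upper-quartile scaling, DESeq2 size factors, no filter, a filter at a mean of 5 CPM, a replicate block, fits of 2 groups only, DESeq2 1.42.0, and each library left out.

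The brake genes, the pathway lists and the naming rule were chosen with earlier results of these data known. The rule names all brake genes, each member of lists of up to 6 genes, otherwise up to 4 genes with the smallest p for Torin1 against DMSO, genes overlapping a brake gene in exons, and up to 3 genes of most similar pattern. Some listed genes are not reported here. Of 112 listed symbols 1 was not matched, and Epas1, Gdf15 and Zbtb16 had too few counts to test. Motifs were searched in the RefSeq promoter table.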

Additional observations from a re-analysis of the deposited data

How the results depend on the processing

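Over 13 alternatives for each of the 60 tests of a brake gene, 741 of 780 values kept their side of the threshold. Of the rest, 32 lost a call and 7 gained one, and 0 values changed direction where called. Some values without a call changed sign, such as Sesn1 for RapaLink-1 against Torin1 (-0.005, and 0.006 with upper-quartile scaling). Every call for Ddit4 and the sestrins against DMSO and against Rapamycin held in all 13. The calls that did not hold were small changes, those of Tsc1, Tsc2, Tbc1d7 and Depdc5 with Rapamycin, Nprl2 and Nprl3 with Torin1, and Sesn3 and Tsc2 between RapaLink-1 and Torin1. For RapaLink-1 against Torin1, the count of brake genes called was 2, and it was 1 with upper-quartile scaling, DESeq2 size factors, no filter on low counts and DESeq2, and 0 to 2 with a library left out. With a library left out, 8 to 9 brake genes were called for Rapamycin, 8 to 10 for Torin1 and 9 for RapaLink-1, each against DMSO. Genes called over all genes tested then numbered 8880 to 9076 of a main count of 9508, 12058 to 12147 of 12422 and 11774 to 11911 of 12201. Upper-quartile scaling moved the median of all genes to 0.07 with Rapamycin, 0.16 with Torin1 and 0.16 with RapaLink-1, each over DMSO, and shifted the brake genes by a median of 0.063, 0.127 and 0.137. With it, 5481 genes were higher and 4061 lower with Rapamycin (4381 and 5127 with TMM), 7640 and 4999 with Torin1 (6332 and 6090), 7629 and 4823 with RapaLink-1 (6165 and 6036), 6359 and 4489 for Torin1 against Rapamycin (5451 and 5288), and 6296 and 4311 for RapaLink-1 against Rapamycin (5088 and 5260). The cause was not tested. The replicate numbers did not pair the libraries, with correlations of deviations of -0.04 to 0.06 for the same number and 3 of 18 best with their own. With the replicate block, 9516, 12414 and 12184 genes were called in the 3 comparisons with DMSO, in the same order, 10741 for Torin1 and 10348 for RapaLink-1 against Rapamycin, and 5322 for RapaLink-1 against Torin1, and no brake gene's call changed. At the depth of these libraries the interval of a brake gene's change was widest for Sesn2.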

Other observations

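Target lists of other transcription factors known for Ddit4 and the sestrins were counted in the same edgeR test, with the brake genes left out. Over all genes tested, 27.5% were higher and 32.2% lower with Rapamycin, 39.8% and 38.3% with Torin1, and 38.7% and 37.9% with RapaLink-1. Of 8 tested p53 targets, 1 was higher and 6 lower with Rapamycin and with Torin1, and 1 higher and 5 lower with RapaLink-1. Aen, an exonuclease gene, was at -0.67, -1.17 and -1.19 with Rapamycin, Torin1 and RapaLink-1, the cell cycle inhibitor Cdkn1a at -1.05, -3.48 and -2.05, Ccng1 at -0.35, -0.40 and -0.31, and Phlda3 at -0.22, -0.44 and -0.33. Cdkn1a counts were low, 61 to 92 with Rapamycin, 8 to 19 in Torin1 libraries and 33 to 41 with RapaLink-1, against 138 to 168 with DMSO. Of 8 FoxO targets, 5 were higher and 2 lower with Rapamycin and with Torin1, and 6 higher and 2 lower with RapaLink-1. Fbxo32, a muscle atrophy ubiquitin ligase gene, was at 1.75, 3.15 and 3.17, Txnip at 1.17, 2.05 and 2.31, Irs2 at 0.35, 1.28 and 1.11, and Ccng2 at 0.92, 1.0 and 0.97.

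Of 9 HIF targets, 2 were higher and 5 lower with Rapamycin, 5 and 4 with Torin1, and 4 and 3 with RapaLink-1. P4ha1, a collagen prolyl hydroxylase gene, was at -0.47, -0.92 and -0.63, the glucose transporter Slc2a1 at -0.43, -0.66 and -0.77, Egln3 at -0.62, -1.02 and -1.11, and Vegfa at 0.25, 0.51 and 0.24. Of 6 tested glucocorticoid receptor targets, 2 were higher and 2 lower with Rapamycin, 3 and 2 with Torin1, and 3 and 1 with RapaLink-1. Dusp1 was at 0.68, 1.57 and 1.5, Fkbp5 at -0.25, -1.42 and -1.17, Sgk1 at 0.16, 0.58 and 0.15, and Klf9 at -0.27, 0.48 and 0.49.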
